A study of Mus musculus with 24 samples.

Results

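Cardiac fibroblasts build and maintain the extracellular matrix of the ventricle, and 10 genes that mark them were followed here in hearts that lacked HIRA in cardiomyocytes: Pdgfra, Tcf21, Dcn, Bgn, Lum, Vcan, Fn1, Dpt, Mfap5 and Fap. They were picked by name, with earlier results of these data known. Every probe whose gene symbol, current or a synonym, was one of the 10 was taken, which gave 12 probes of the 26423 on the array, for 10 of the 17742 genes measured. All 10 genes were represented, Dcn and Vcan by 2 probes each, and all 12 probes carried the current symbol.

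RNA came from non-scarred left ventricular free wall of 6-week-old mice and was hybridized to MouseOne Array Plus arrays, 3 per mouse. The 4 Hira CKO mice were αMHC-cre Tg/+; Hira flox/-, and the 4 control mice were αMHC-cre Tg/+; Hira flox/+. The strain was given as C57BL6/J;129S1/SvImJ. All mice therefore carried the Cre transgene and at least 1 floxed allele, and the cross also held the Rosa26 YFP reporter. The αMHC promoter drives Cre in cardiomyocytes, so fibroblasts were not the cells targeted for deletion. In cells without Cre activity, Hira CKO mice had 1 deleted and 1 undeleted floxed allele, and control mice had 1 floxed and 1 wild-type allele. Mice without Cre or without a floxed allele were not among the arrays, so effects of either cannot be told apart from the background that both groups share.

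HIRA is a histone chaperone that places the histone variant H3.3 at transcribed genes. Resident cardiac fibroblasts arise mainly from the epicardium, depend on the transcription factor TCF21 for their formation and carry the PDGF receptor PDGFRA on their surface. At rest they secrete small leucine-rich proteoglycans, fibronectin and microfibril proteins. In an injured or overloaded heart they can become activated, and then express contractile and matricellular genes.

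Each mouse counted once (n = 4 per group), with its arrays averaged. Mice are named as in the labels, CKO_ or control_ followed by the mouse number. Values were linear probe intensities scaled so that each array had a median of 513.2, which hides any change common to all genes. In limma on log2 intensity, 14.6% of all genes were called at a Benjamini-Hochberg adjusted p under 0.05, 4.94% higher and 9.65% lower in Hira CKO. The median log2 fold change of all genes was −0.14 on this scale and −0.02 after quantile normalization. The dim end of the arrays was lower in 3 of the 4 Hira CKO mice than in any control, with a 5th percentile of intensity of 23.8 ± 10.1 in Hira CKO and 43 ± 8.61 in control (SD, n = 4 each; 2-sided exact permutation test, p = 0.0571). The deleted gene, Hira, averaged 202 ± 25.6 in Hira CKO and 231 ± 26.6 in control, a log2 fold change of −0.20 with an adjusted p of 0.282, and the sources used here do not say whether this probe lies in the deleted part.

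Each fibroblast marker had a probe above the dim end of the arrays, and 9 of the 10 were not called. Over all arrays, 0 values of the 12 probes were under 1, though the second Vcan probe was dim and fell to 31.0 on an array. Of the 10 genes, 0 were called higher, 1 was called lower (Fap) and 9 were not called, against 4.94% of all genes called higher and 9.65% called lower. At an unadjusted p under 0.05, 1 of the 10 passed, again Fap, against 36.6% of all genes. The median log2 fold change of the 10 was 0.00 (all genes, −0.14), and 6 were positive and 4 negative. After quantile normalization it was 0.04 (all genes, −0.02), and after cyclic loess 0.08 (all genes, −0.01). Under both, Fap was again called lower and 0 of the 10 higher, where 5.48% of all genes were called lower and 7.05% higher after quantile normalization (12.5% in all), and 4.88% lower and 7.14% higher after loess (12% in all). The 95% intervals of the 9 uncalled genes lay between −0.62 and 0.64 on the log2 scale. For all 10 genes the interval excluded a 2-fold change in either direction, and for 7 it lay within 0.5 either way. Fewer fibroblasts and less RNA per fibroblast cannot be told apart in bulk ventricle. The linear intensities of each gene in each mouse are plotted first, and the fold changes with their intervals after the account of the single genes.

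**Figure D1:**
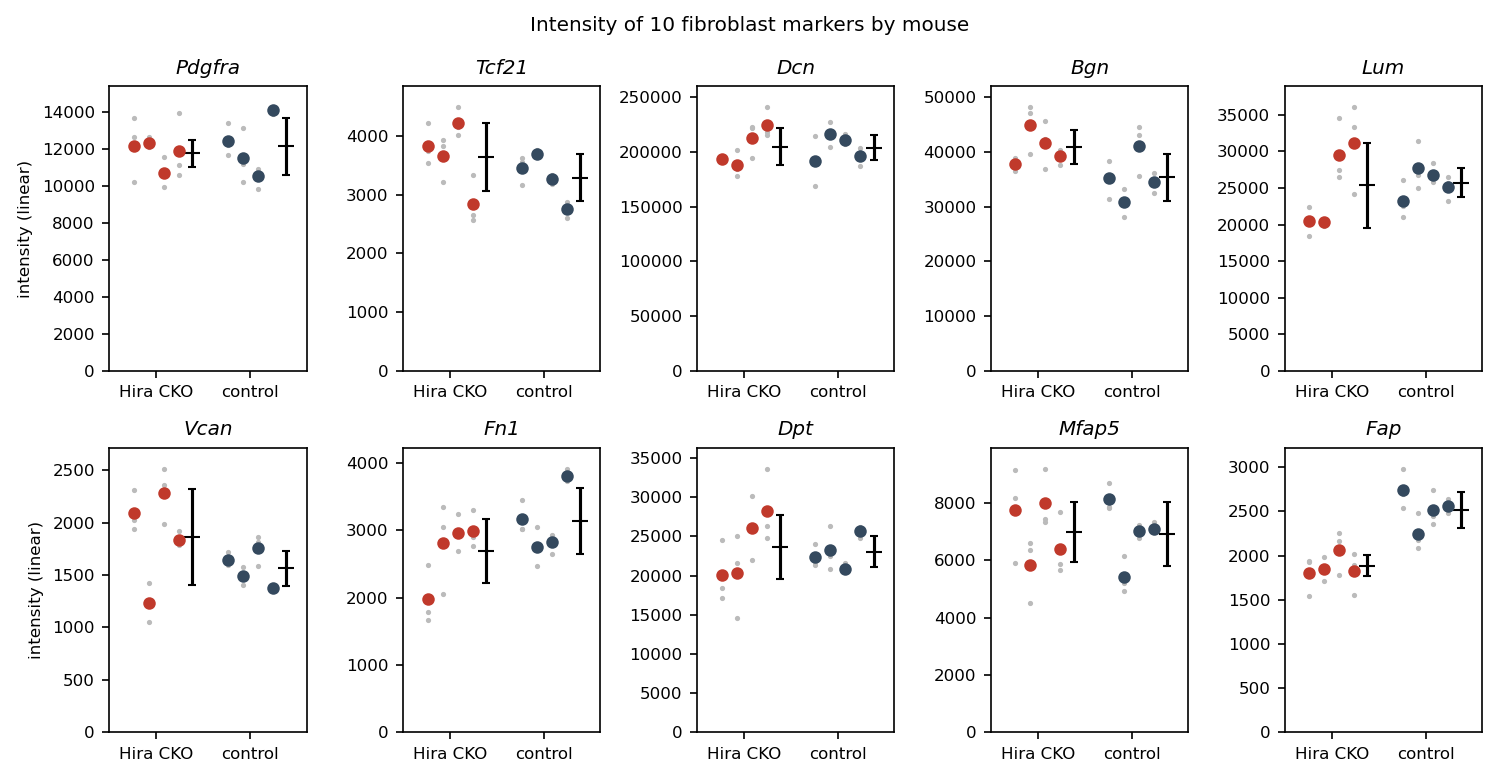
Linear intensity (vertical axis, from 0) of the 10 fibroblast markers in Hira CKO mice (red, CKO_6300, CKO_6499, CKO_6672 and CKO_6707 from left to right) and control mice (dark blue, control_6299, control_6497, control_6675 and control_6706), with 1 large point per mouse, grey points for its 3 arrays, and a bar for the group mean ± SD (n = 4). The groups overlap in 9 panels, and in Fap every Hira CKO mouse lies below every control mouse.

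Fap encodes fibroblast activation protein, a membrane-bound serine protease that cleaves after proline and that is used as a marker of activated fibroblasts in scarred heart and tumour stroma. Its intensity was 1805, 1852, 2065 and 1821 in CKO_6300, CKO_6499, CKO_6672 and CKO_6707, against 2742, 2249.6, 2518 and 2566 in control_6299, control_6497, control_6675 and control_6706. All 4 Hira CKO mice were below all 4 control mice, which Fap alone among the 10 genes showed (23.4% of all genes had groups that did not overlap, and 15.6% were lower in this way). The means were 1886 ± 121 in Hira CKO and 2519 ± 204 in control (SD, n = 4 each). Fap fell by 25.3%, a log2 fold change of −0.42 with a standard error of 0.09 and a 95% interval of −0.63 to −0.21 (limma, adjusted p = 0.0240). The fall of all genes on this scale, −0.14, left −0.28 of it, and the change was −0.41 after quantile normalization (adjusted p = 0.0206) and −0.39 after cyclic loess (adjusted p = 0.0249).

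The call on Fap was often lost when a mouse was left out, while its size changed little. Without 1 mouse at a time the log2 fold change stayed between −0.47 and −0.38, and 3 of the 8 fits kept the call. It was lost without control_6299 (adjusted p = 0.0637), control_6675 (0.0692) or control_6706 (0.0574), or without CKO_6499 (0.0545) or CKO_6707 (0.0564).

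Of the other prolyl peptidases, a family that includes the dipeptidyl peptidases, 7 of 7 genes were measured and 0 were called (14.6% of all genes). Their median log2 fold change was −0.03 (all genes, −0.14). The pair with the smallest p were Dpp6, a potassium channel subunit without peptidase activity, and Prep, a cytosolic prolyl endopeptidase. Dpp6 averaged 103 ± 14.1 in Hira CKO and 131 ± 9.30 in control, with a log2 fold change of −0.35 and an adjusted p of 0.0671. Prep averaged 9739 ± 670 in Hira CKO and 11157 ± 444 in control, with a log2 fold change of −0.20 and an adjusted p of 0.133. In Prep the 4 Hira CKO mice lay below the 4 control mice (15.6% of all genes lay so), and in Dpp6 the linear intensities overlapped, with 122.4 in CKO_6300 and 122.2 in control_6706.

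Pdgfra encodes the PDGF receptor of fibroblasts and Tcf21 the basic helix-loop-helix factor of their precursors. Neither was called. Pdgfra intensity was 12147, 12294, 10691 and 11869.9 in CKO_6300, CKO_6499, CKO_6672 and CKO_6707, against 12408, 11499, 10507 and 14110.4 in control_6299, control_6497, control_6675 and control_6706. The Hira CKO values fell inside the control range, whose top was control_6706. The log2 fold change was −0.04 (95% interval −0.29 to 0.21, adjusted p = 0.802).

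Tcf21 intensity was 3834, 3658, 4213 and 2845 in CKO_6300, CKO_6499, CKO_6672 and CKO_6707, against 3444, 3694, 3269 and 2750.2 in control_6299, control_6497, control_6675 and control_6706. Each group held 1 mouse lower than its other mice, CKO_6707 and control_6706, and the groups overlapped. The log2 fold change was 0.13 (95% interval −0.19 to 0.46, adjusted p = 0.524).

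The small leucine-rich proteoglycans Dcn (decorin), Bgn (biglycan) and Lum (lumican) bind collagen fibrils, and decorin and biglycan also bind TGF-β. Dcn and Lum are next to each other in the RefSeq annotation of GRCm38, followed by their family members Kera and Epyc. Dcn was called by neither of its probes. The brighter probe read 193747, 187746, 212730.0 and 224693 in CKO_6300, CKO_6499, CKO_6672 and CKO_6707, against 192022, 216009, 210486 and 196406 in control_6299, control_6497, control_6675 and control_6706. The groups covered almost the same range, and the log2 fold change was 0.01 (95% interval −0.21 to 0.22, adjusted p = 0.974).

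The second Dcn probe read 80686, 91556, 111226 and 110013 in CKO_6300, CKO_6499, CKO_6672 and CKO_6707, against 114330.0, 109608, 109525 and 122925 in control_6299, control_6497, control_6675 and control_6706. Here CKO_6300 and CKO_6499 were below all controls, while CKO_6672 and CKO_6707 were among them. Its log2 fold change was −0.23 ± 0.12 (standard error), with an adjusted p of 0.200 over all 26423 probes. The log2 ratio of the brighter to the second Dcn probe was 1.07 ± 0.14 in Hira CKO and 0.84 ± 0.15 in control mice (SD, n = 4 each, 2-sided exact permutation test, p = 0.0857). For Vcan, whose second probe was dim, this ratio was 4.94 ± 0.40 in Hira CKO and 4.35 ± 0.09 in control (same test, p = 0.0286). Adjusted over the 2 probe pairs, the p of this test was 0.0571 for Vcan and 0.0857 for Dcn, and such adjustment cannot change the larger p. Both tests were chosen after the probes' values were seen.

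Bgn intensity was 37800.1, 44973, 41633 and 39209 in CKO_6300, CKO_6499, CKO_6672 and CKO_6707, against 35179, 30799, 41156 and 34540.1 in control_6299, control_6497, control_6675 and control_6706. Among controls, control_6675 lay among the Hira CKO mice and the other 3 controls lay below them. The means were 40904 ± 3141 in Hira CKO and 35419 ± 4285 in control, a log2 fold change of 0.21 (95% interval −0.03 to 0.46) that had the smallest adjusted p of the uncalled markers (0.188).

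Lum intensity was 20519, 20304, 29544 and 31181 in CKO_6300, CKO_6499, CKO_6672 and CKO_6707, against 23241, 27753, 26840.1 and 25118 in control_6299, control_6497, control_6675 and control_6706. A pair of Hira CKO mice lay below every control and the other pair above every control. The mean difference was accordingly small, with a log2 fold change of −0.05 (95% interval −0.41 to 0.31, adjusted p = 0.843). The SD of log2 intensity was 0.32 among Hira CKO mice and 0.11 among control mice.

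Of 13 other small leucine-rich proteoglycan genes listed, 11 were measured, 0 were called higher (4.94% of all genes) and 1 lower (9.65% of all genes). Their median log2 fold change was −0.18 (all genes, −0.14). The 1 called gene was Kera (keratocan, a corneal proteoglycan), at 36.0 ± 8.45 in Hira CKO and 57.0 ± 9.09 in control, at the dim end of the arrays. Its log2 fold change was −0.76 (adjusted p = 0.0413) as deposited and −0.01 (adjusted p = 0.973) after quantile normalization, so the size of the difference rested on the scaling. Without 1 mouse at a time the call on Kera was kept in 1 of 8 fits, that without CKO_6300 (adjusted p = 0.00601), and the other adjusted p reached 0.0989. After quantile normalization 1 of the 11 was called higher (7.05% of all genes) and 0 lower (5.48% of all genes). The gene called higher there was Podnl1, at 128 ± 22.1 in Hira CKO and 95.9 ± 4.59 in control. Its log2 fold change was 0.42 as deposited (adjusted p = 0.0655) and 0.67 after quantile normalization (adjusted p = 0.00506).

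Vcan encodes versican, a large proteoglycan that binds hyaluronan, and Fn1 encodes fibronectin, which forms the fibrils on which other matrix proteins assemble. The brighter Vcan probe read 2088, 1230.2, 2284 and 1836 in CKO_6300, CKO_6499, CKO_6672 and CKO_6707, against 1643, 1490.0, 1754 and 1374 in control_6299, control_6497, control_6675 and control_6706. CKO_6499 was the lowest of all 8 mice and the other 3 Hira CKO mice were above every control. The log2 fold change was 0.21 with the widest interval of the 10 genes (−0.22 to 0.64, adjusted p = 0.437). It was −0.08 to 0.40 over the alternatives, and 0 of 24 of these called it.

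The second Vcan probe was dim, and it went the other way. It read 78.2, 52.6, 55.3 and 57.4 in CKO_6300, CKO_6499, CKO_6672 and CKO_6707, against 87.2, 78.2, 81.0 and 72.4 in control_6299, control_6497, control_6675 and control_6706. Only CKO_6300 reached the control range. Its log2 fold change was −0.38, with a standard error of 0.14 and an adjusted p of 0.0914 over all probes, near the dim end of the arrays. The 5th percentile of intensity was 38.7, 21.0, 18.1 and 17.4 in CKO_6300, CKO_6499, CKO_6672 and CKO_6707, against 54.8, 43.1, 39.2 and 34.7 in control_6299, control_6497, control_6675 and control_6706. CKO_6300, the Hira CKO mouse whose dim end lay inside the control range, was also the one whose second Vcan probe did. The part of the dim end in the value of this probe was not tested, and the sources used here do not say which transcripts each probe detects.

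Fn1 intensity was 1981, 2809.9, 2961 and 2985 in CKO_6300, CKO_6499, CKO_6672 and CKO_6707, against 3159, 2744, 2829.7 and 3808 in control_6299, control_6497, control_6675 and control_6706. CKO_6300 was the lowest and control_6706 the highest, and the other 6 mice lay together. The means were 2684 ± 475 in Hira CKO and 3135 ± 483 in control, a log2 fold change of −0.24 (95% interval −0.62 to 0.13, adjusted p = 0.305). Fn1 and Fap were the 2 of the 10 genes that lay below the median of all genes.

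Of the 16 genes for hyaluronan synthesis, link proteins, related proteoglycans and versican-cleaving proteases, 1 was called higher and 0 lower (median −0.11). Of all genes, 4.94% were called higher and 9.65% lower, with a median of −0.14. Adamts1, a secreted protease that cleaves versican, averaged 16359 ± 5002 in Hira CKO and 8822 ± 1994 in control, with the groups not overlapping. Adamts1 rose by a log2 fold change of 0.85 (adjusted p = 0.0469). The call was lost in 7 of 8 fits without 1 mouse (log2 fold change 0.68 to 0.98, highest adjusted p 0.103) and kept without CKO_6300.

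Of 15 fibronectin receptors and partners (integrins, syndecans and tensin 1), 1 was called higher (4.94% of all genes) and 0 lower (9.65% of all genes). Their median was 0.00. Itga9, an integrin subunit whose ligands include the alternatively spliced EDA segment of fibronectin and tenascin-C, was the called gene. It read 17224, 16209, 14372 and 14995 in CKO_6300, CKO_6499, CKO_6672 and CKO_6707, against 9229.6, 9472, 10319 and 7702 in control_6299, control_6497, control_6675 and control_6706. The groups lay far apart, with a log2 fold change of 0.78 (adjusted p = 0.00466) that stayed called in 8 of 8 fits without 1 mouse.

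Dpt encodes dermatopontin, which binds decorin and fibronectin, and Mfap5 encodes a glycoprotein of fibrillin microfibrils. Dpt intensity was 20042, 20391, 26089.5 and 28245 in CKO_6300, CKO_6499, CKO_6672 and CKO_6707, against 22405, 23221, 20899 and 25705 in control_6299, control_6497, control_6675 and control_6706. As in Lum, 1 pair of Hira CKO mice lay below every control and the other pair above, on the deposited scale. After quantile normalization Dpt in CKO_6300 (log2 14.38) and CKO_6499 (14.37) lay above control_6675 (14.28). The log2 fold change was 0.01 (95% interval −0.30 to 0.32, adjusted p = 0.969).

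Mfap5 intensity was 7745, 5832, 7999 and 6415 in CKO_6300, CKO_6499, CKO_6672 and CKO_6707, against 8134, 5434, 7019 and 7104 in control_6299, control_6497, control_6675 and control_6706. The groups shared one range, with a log2 fold change of 0.00 (95% interval −0.34 to 0.35, adjusted p = 0.988). Of 14 other microfibril and elastic fibre genes, 2 were called higher (4.94% of all genes) and 0 lower (9.65% of all genes), with a median of 0.07. After quantile normalization 3 were called higher (7.05% of all genes) and 1 lower (5.48% of all genes). The last was Efemp1, at 597 ± 178 in Hira CKO and 1071 ± 241 in control, with the groups apart. Its log2 fold change was −0.88 as deposited (adjusted p = 0.0523) and −0.87 after quantile normalization (adjusted p = 0.0439). Mfap4, an elastic fibre protein, rose by 0.59 on the log2 scale (adjusted p = 0.0217), with 988 ± 92.0 in Hira CKO and 656 ± 101 in control. Ltbp2, a fibrillin-binding protein of the latent TGF-β binding protein family, rose by 0.44 (adjusted p = 0.0253), with 6664 ± 723 in Hira CKO and 4897 ± 277 in control. Either call was lost in 4 of 8 fits without 1 mouse, for Mfap4 without CKO_6672 or control_6497, control_6675 or control_6706 (highest adjusted p 0.0547) and for Ltbp2 without CKO_6499 or control_6299, control_6675 or control_6706 (0.0763).

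**Figure D2:**
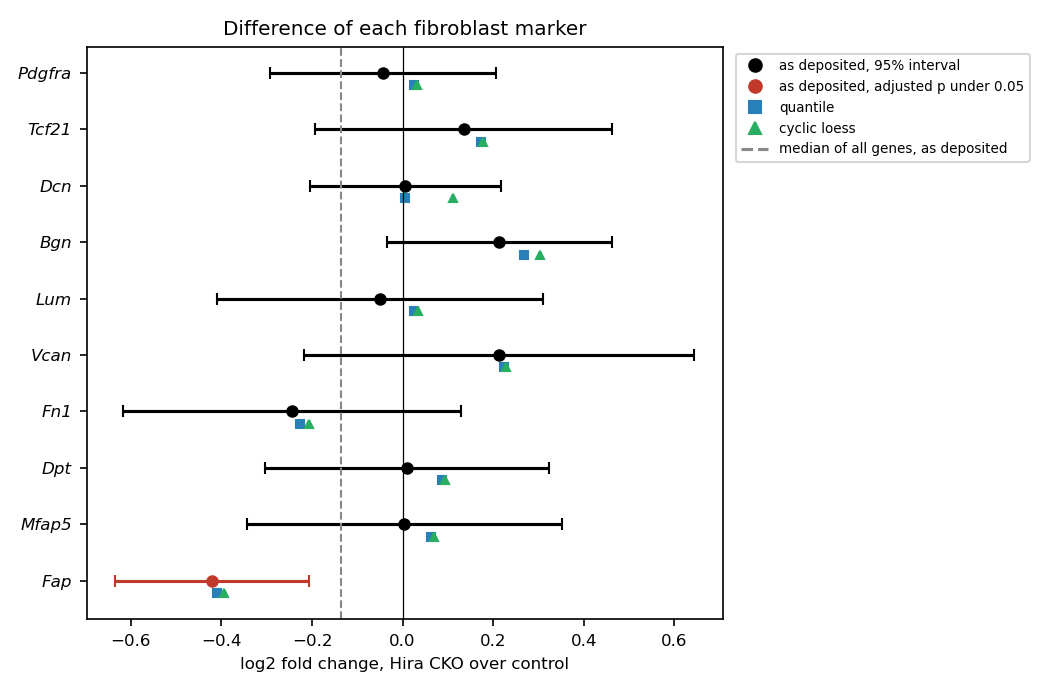
Log2 fold change, Hira CKO over control, of the 10 fibroblast markers as deposited (circles with 95% intervals, n = 4 mice per group, red where the adjusted p was under 0.05), after quantile normalization (squares) and after cyclic loess (triangles), with the median of all genes (−0.14) as a dashed line. Fap, at −0.42, is the only gene whose interval leaves out 0, and the intervals of the others reach from −0.62 to 0.64.

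The markers did not all vary together among the mice. In log2 deviations from the mean of the own group, Dcn, Lum and Dpt were low in CKO_6300 and CKO_6499 and high in CKO_6672 and CKO_6707. Lum deviated by −0.27 and −0.29 in the first pair and by 0.25 and 0.31 in the second, and Dpt by −0.22 and −0.22 in the first pair and by 0.16 and 0.28 in the second. After quantile normalization Dcn was at 17.65 in CKO_6300 and 17.67 in CKO_6707 (log2), so for Dcn these mice were no longer clearly apart. Tcf21 and Pdgfra did not follow the split of Lum and Dpt. Tcf21 was lowest in CKO_6707 (−0.34), and Pdgfra was lowest in CKO_6672 (−0.13).

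Each of CKO_6300 and CKO_6499 was the lowest Hira CKO mouse in 4 of the 10 genes, and each of CKO_6672 and CKO_6707 was the highest in 4. CKO_6672 was above the mean of its group in 9 of the 10. Among controls, control_6497 was the lowest in 4 and the highest in 3. The SD of log2 intensity was larger in Hira CKO than in control for 6 of the 10 markers, against 63.1% of all genes. The technical spread was of similar size in some mice: the median SD of log2 intensity over the 3 arrays of a mouse was 0.157 to 0.202 for the 10 genes in Hira CKO mice and 0.0431 to 0.142 in control mice. These deviations are a description of 8 mice, and the split among Hira CKO mice was seen in the data and not tested.

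**Figure D3:**
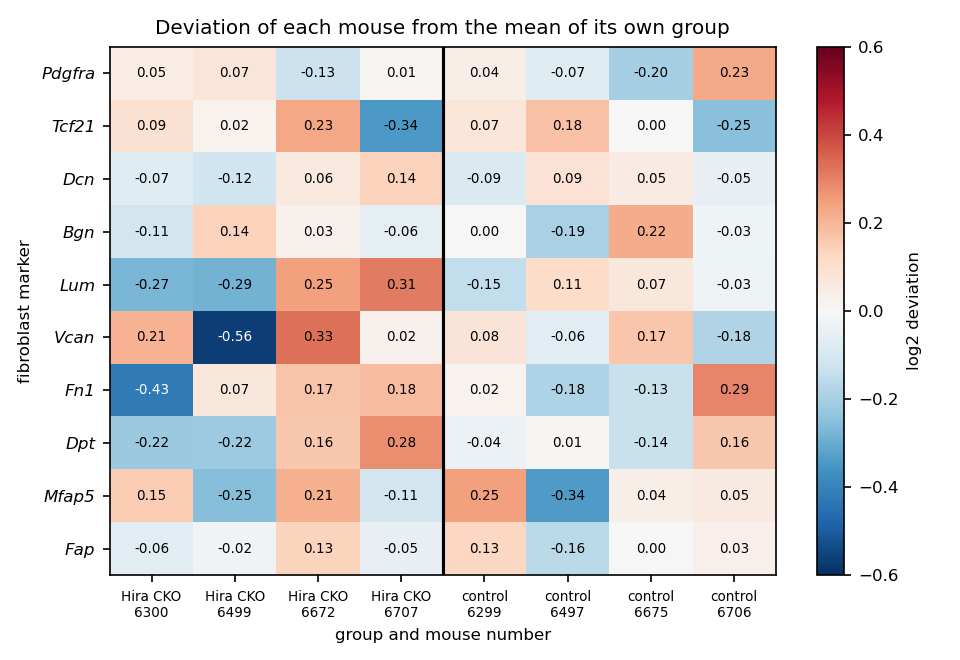
Log2 deviation of each mouse (columns, Hira CKO left and control right) from the mean of its own group for the 10 fibroblast markers (rows), in red where above and blue where below. Lum and Dpt are blue in CKO_6300 and CKO_6499 and red in CKO_6672 and CKO_6707, and the deepest deviation is that of Vcan in CKO_6499 (−0.56).

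Further fibroblast genes were taken as 2 lists, general and activated, and are read against the 4.94% of all genes called higher and the 9.65% called lower. Of 32 other fibroblast genes, among them the fibrillar collagens, 29 were measured, of which 0 were called higher and 1 lower, with a median log2 fold change of 0.02. The gene called lower was Smoc2, a secreted matrix protein that binds calcium. It averaged 22351 ± 3103 in Hira CKO and 30698 ± 4004 in control, a log2 fold change of −0.46 (adjusted p = 0.0492) in overlapping groups. The call on Smoc2 was lost in 7 of 8 fits without 1 mouse (log2 fold change −0.55 to −0.38, highest adjusted p 0.114) and kept without CKO_6707. After quantile normalization 1 of the 29 was called higher (7.05% of all genes) and 1 lower (5.48% of all genes). The gene called higher there was Pcolce, at 0.47 as deposited (adjusted p = 0.0560) and 0.53 on that scale (adjusted p = 0.0226). Among fibrillar collagens, Col1a1 was at −0.52 (adjusted p = 0.107) and Col1a2 at 0.51 (adjusted p = 0.106). Col3a1 was at 0.47 (adjusted p = 0.281) and Col5a1 at 0.25 (adjusted p = 0.411).

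Of 21 genes of activated fibroblasts, all of them measured, 6 were called higher (4.94% of all genes), 0 lower (9.65% of all genes) and 15 were not called, and the median log2 fold change was 0.44 (all genes, −0.14), or 0.50 after quantile normalization (all genes, −0.02). After quantile normalization 7 were called higher (7.05% of all genes) and 0 lower (5.48% of all genes). The list was chosen with earlier results of these data known, so its difference from all genes is a description and no independent test. Fap, itself used as an activation marker, was lower in the same mice. The 4 called genes with the smallest p were Cthrc1, Ccn2, Acta2 and Thbs4. Cthrc1, a secreted protein of activated fibroblasts, read 221, 238, 238 and 260.3 in CKO_6300, CKO_6499, CKO_6672 and CKO_6707, against 159, 97.4, 118 and 114 in control_6299, control_6497, control_6675 and control_6706. It was higher in each Hira CKO mouse than in any control, by a log2 fold change of 0.996 (adjusted p = 0.00450), and stayed called in 8 of 8 fits without 1 mouse.

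Ccn2, a matricellular protein induced by TGF-β and by stretch, read 52685, 66246, 36979 and 49035 in CKO_6300, CKO_6499, CKO_6672 and CKO_6707, against 32018, 25254, 24703 and 27679 in control_6299, control_6497, control_6675 and control_6706. Acta2, smooth muscle α-actin, read 197884, 175577, 135462 and 135303 in these Hira CKO mice, against 111065, 84022, 86738 and 69676 in these control mice. In both genes the groups were apart, and CKO_6300 and CKO_6499, the pair with low Lum and Dpt, were the 2 highest. Ccn2 rose by 0.88 (adjusted p = 0.0163) and Acta2 by 0.87 (adjusted p = 0.0166) on the log2 scale.

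Thbs4, thrombospondin 4, read 6602, 7617, 4605 and 4213 in CKO_6300, CKO_6499, CKO_6672 and CKO_6707, against 2730.5, 2224, 2764 and 3456 in control_6299, control_6497, control_6675 and control_6706. Thbs4 too was highest in CKO_6300 and CKO_6499, and rose by 1.02 (adjusted p = 0.0189). Cthrc1 did not follow this order: among Hira CKO mice it was lowest in CKO_6300 (221) and highest in CKO_6707 (260.3). Without control_6675 the adjusted p was 0.0540 for Ccn2, 0.0512 for Acta2 and 0.0554 for Thbs4, and these 3 genes stayed called without any other single mouse. Cardiomyocytes and smooth muscle cells can also express Ccn2, Acta2 and Thbs4, and these arrays do not show which cells carried the RNA.

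Among PDGF ligands and the receptors beside Pdgfra, 6 of 6 genes were measured. Of these, 1 was called higher (4.94% of all genes) and 1 lower (9.65% of all genes), with a median of −0.05. Pdgfc, a ligand of PDGFRA, read 696, 859, 655 and 636 in CKO_6300, CKO_6499, CKO_6672 and CKO_6707, against 450.2, 446, 462 and 343 in control_6299, control_6497, control_6675 and control_6706. It was higher in all Hira CKO mice, by a log2 fold change of 0.74 (adjusted p = 0.0118), and stayed called in 8 of 8 fits without 1 mouse.

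Pdgfb, the ligand of endothelial cells for mural cells, read 6107, 6441, 5099 and 5207 in CKO_6300, CKO_6499, CKO_6672 and CKO_6707, against 7095, 8078, 8329 and 7815 in control_6299, control_6497, control_6675 and control_6706. It was lower in all Hira CKO mice, by −0.46 (adjusted p = 0.0249), and the call was lost after quantile normalization (−0.40, adjusted p = 0.0531) and also after cyclic loess. The call was also lost without CKO_6672 or CKO_6707 or control_6497, control_6675 or control_6706 (highest adjusted p 0.0772). The receptor itself, Pdgfra, was not called beside either ligand.

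Of 16 transcription factors that partner TCF21 or mark epicardial and fibroblast lineages, 0 were called higher and 1 lower (median 0.01). Of all genes, 4.94% were called higher and 9.65% lower. After quantile normalization 1 of the 16 was called higher (7.05% of all genes) and 1 lower (5.48% of all genes). Meox2, a homeobox factor of mesenchyme and endothelium, averaged 8009 ± 1401 in Hira CKO and 12943 ± 1959 in control, with the groups apart. Meox2 fell by 0.69 in log2 terms (adjusted p = 0.0237), and the call was lost without CKO_6707 or control_6299, control_6497 or control_6675 (highest adjusted p 0.0665).

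Taking all related lists together, without the 10 markers, 130 of 135 genes were measured, of which 10 were called higher (4.94% of all genes), 4 lower (9.65% of all genes) and 116 not, with a median of 0.02 (all genes, −0.14). These lists share some genes, such as Ltbp2, which were counted once in the total. They were chosen with earlier results of these data known, so the shares of all genes beside them serve description only. After quantile normalization 14 were called higher (7.05% of all genes) and 3 lower (5.48% of all genes).

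Markers of the other cells of the ventricle were set beside the fibroblast markers. Of cardiomyocyte markers, 9 of 13 were measured and 0 called (14.6% of all genes), with a median of 0.08 (all genes, −0.14). Their summed intensity was 2356440 to 2617550 in Hira CKO and 2184860 to 2382040 in control, and that of the 10 fibroblast markers was 301090 to 351100 in Hira CKO and 304379 to 327278 in control. Such sums are weighted to the brightest probes. The pair of cardiomyocyte genes with the smallest p were Tnni3 (0.54, adjusted p = 0.313) and Atp2a2 (0.32, adjusted p = 0.342). Of endothelial markers, 10 of 11 were measured and 0 called (14.6% of all genes), with Pecam1 at −0.38 (adjusted p = 0.0618) and Kdr at −0.39 (adjusted p = 0.0873). Their median was −0.22 (all genes, −0.14), and −0.16 after quantile normalization (all genes, −0.02). Summed over the list, endothelial intensity was 163072 to 185349 in Hira CKO and 187227 to 209515 in control, so these sums did not overlap. Of all genes taken singly, 15.6% were lower in Hira CKO without overlap.

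Of mural cell markers, 7 of 9 were measured and 0 called (14.6% of all genes), with Kcnj8 at −0.43 (adjusted p = 0.0505) and Cspg4 at −0.30 (adjusted p = 0.0536). Their median was −0.38 (all genes, −0.14), and −0.24 after quantile normalization (all genes, −0.02). Their sums were 59954 to 76453 in Hira CKO and 74069.8 to 90429 in control. Of macrophage markers, 9 of 10 were measured, with 1 called higher (4.94% of all genes) and 0 lower (9.65% of all genes). The called gene was Cd68, a lysosomal protein, which rose by 0.70 (adjusted p = 0.0272). Every other measured macrophage marker had a negative log2 fold change and was not called. The list's median was −0.20 and its sums 57689 to 100179 in Hira CKO and 70670.5 to 110037 in control. The call on Cd68 was lost in 5 of 8 fits without 1 mouse (highest adjusted p 0.0699) and kept without CKO_6300 or control_6497 or control_6675.

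Mesothelial markers, which label the epicardial surface, were all measured. Of the 7, 2 were called lower (9.65% of all genes), and the median was −0.47 (all genes, −0.14), with sums of 6303 to 8057 in Hira CKO and 9770.4 to 11592 in control. After quantile normalization 2 were called lower (5.48% of all genes) and 1 higher (7.05% of all genes). The last was Krt8, at 101 ± 74.5 in Hira CKO and 14.6 ± 13.0 in control. This control mean lay below the 5th percentile of intensity of every mouse (17.4 to 54.8). The log2 fold change of Krt8 was −0.12 as deposited, with a standard error of 1.03 (adjusted p = 0.947). It was 1.59 after quantile normalization (adjusted p = 0.0295). Upk3b, a uroplakin of mesothelium, read 2649, 1540.3, 2319 and 2219 in CKO_6300, CKO_6499, CKO_6672 and CKO_6707, against 3676, 3956, 4496 and 5401 in control_6299, control_6497, control_6675 and control_6706. Upk3b fell by 1.02 in log2 terms (adjusted p = 0.0112) and stayed called in 8 of 8 fits without 1 mouse. Upk1b fell by 0.63 (adjusted p = 0.0402), a call kept in 1 of 8 fits (without CKO_6300) with adjusted p up to 0.104. Whether the share of epicardial surface in the dissected wall had a part in the values of the fibroblast genes was not tested.

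For the remaining cells, 3 of 5 Schwann cell markers (median 0.19), 4 of 5 lymphocyte markers (median −0.07) and 1 of 4 erythroid markers (−0.25) were measured. Of them, 0 were called (14.6% of all genes). Of these, Sox10 of Schwann cells was at 0.24 (adjusted p = 0.101) and S100b at 0.19 (adjusted p = 0.421). Among lymphocyte markers Cd79a was at −0.32 (adjusted p = 0.121) and Ms4a1 at −0.60 (adjusted p = 0.160), and Alas2, of red cell precursors, was at −0.25 (adjusted p = 0.833).

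**Figure D4:**
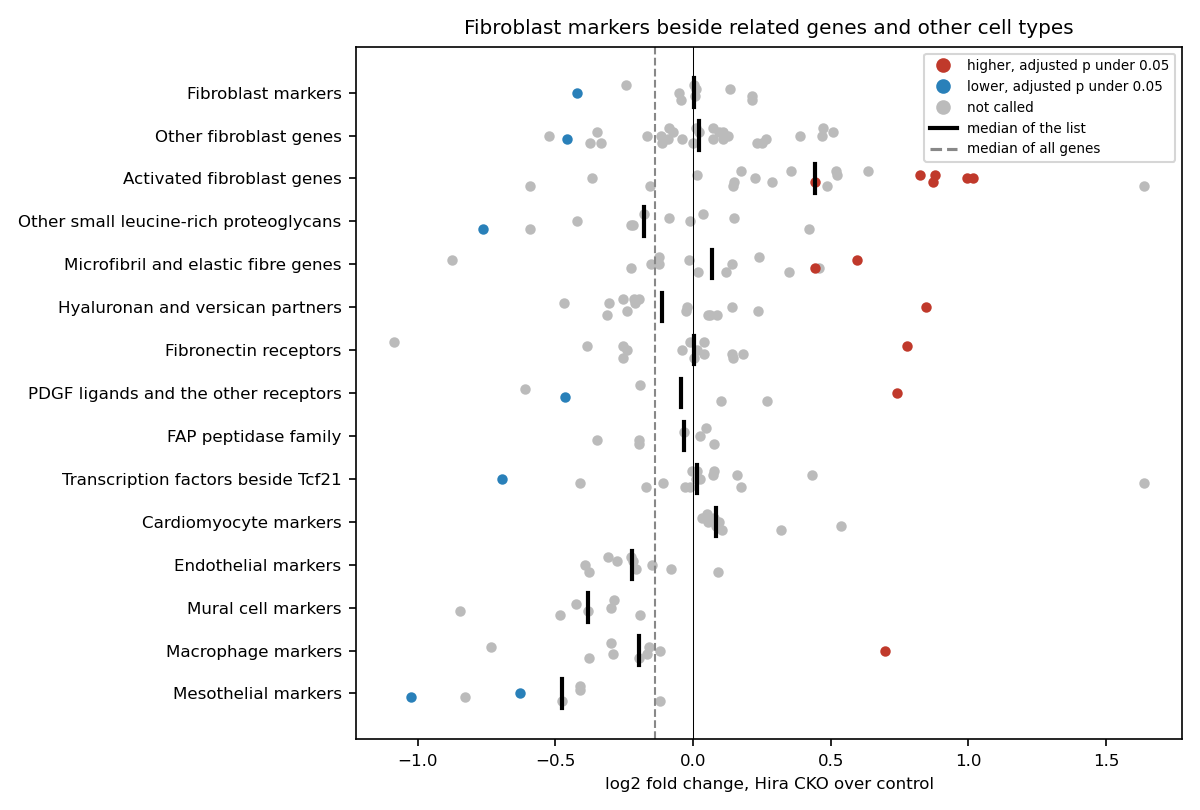
Log2 fold change, Hira CKO over control (horizontal axis, n = 4 mice per group), with 1 point per gene for the 10 fibroblast markers (top row), for related lists and for markers of 5 other cell types, red where called higher, blue where called lower and grey where not called, a bar at each list's median and a dashed line at the median of all genes (−0.14). Fibroblast markers lie around 0.00 with Fap to the left, activated fibroblast genes have a median of 0.44 and mesothelial markers one of −0.47. The lists were chosen with earlier results of these data known.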

How the data were processed

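The study measured left ventricular RNA of 4 Hira CKO and 4 control mice on 24 single-colour arrays. The authors deposited linear probe intensity values after median scaling; values below 0 were present, and the sources used here do not name the background method. Values under 1 (0 to 2535 per array) were raised to 1 before log2. Of 26423 probes, 20377 had 1 gene symbol, updated through the RefSeq table of GRCm38 to 17742 genes, and 6046 had none. The probe with the highest mean stood for a gene. Per mouse, the log2 values of its 3 arrays were averaged, and printed intensities are arithmetic means of the arrays. Groups were compared in limma 3.58.1 (R 4.3.3; lmFit and eBayes without covariates), p-values were adjusted by Benjamini-Hochberg over the genes, and second probes in a fit over all probes. The fit was tested on simulated data. The number of mice limits the precision, and p-values of this fit rest on the spread between mice.

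Named by rule were every marker with each probe and, per list, up to 4 called genes by smallest p, or 2 genes by smallest p in lists with no call. Hira, Efemp1, Krt8, Podnl1, Pcolce and the collagens Col1a1, Col1a2, Col3a1 and Col5a1 are given outside this rule. Members and lists were chosen with earlier results of these data known. Results were recomputed after quantile or cyclic loess normalization, with an offset of 50, with dim probes (mean under 100) left out, with the mean of a gene's probes, with every probe, with a robust trend, by the methods' t-test, with the mouse as random block, array or neighbouring mouse numbers as a block, mice or arrays left out, and other thresholds. Protein and promoter sequences were not used here. Figures were drawn with matplotlib 3.10.9 in Python 3.11.15.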

Additional observations from a re-analysis of the deposited data

Results flagged for a closer look

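Within each group of 4 mice, the mouse farthest from the others was compared with the range of its group for the 10 fibroblast markers and the other genes named by rule, 78 sets over 39 genes. Pdgfc in control_6706 stood apart, with an intensity of 342.8 against 445.6 to 462.5 in the other 3 control mice (gap over range 0.8646). Of the 10 fibroblast markers, 0 had such a mouse. Chance gives about 1 in 20 sets.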

How the results depend on the processing

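Of 24 alternatives, Fap kept its direction in all and its call in 18. Many of these, such as another test, block, threshold or choice of probes, left the Fap estimate at −0.42, so its direction could not differ. Other normalizations, the offset, and leaving out mice or arrays could change the estimate, which ranged from −0.47 to −0.38. A looser threshold cannot lose a call, and a stricter threshold cannot gain one. Under an adjusted p of 0.01, and under the methods' t-test with a log2 fold change of at least 1, 0 markers were called lower, and without 1 mouse or array 0 to 1. The other 9 markers were called in 0 alternatives. Of the other 29 genes named by rule, 14 lost and 6 gained a call in at least 1 alternative.

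Array numbers pair nothing across mice: deviations of same-numbered arrays had a median r of −0.07 to −0.04, and 3 of 24 arrays were closest to their own number. The fits with array number or with the mouse as a block took the 24 arrays singly, with a correlation within mice shared by all genes. Their p-values therefore did not rest on the spread between mice alone. With array number as a replicate block Fap had an adjusted p of 0.00105, and 17 related genes were called higher and 12 lower (all genes, 1415 higher). With the mouse as a random block 18 were called higher and 13 lower (all genes, 1454 higher), and with neighbouring mouse numbers as a block 7 related genes were called lower.

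The 4 related genes called lower became 1 after cyclic loess, 10 with an offset of 50, 7 with a robust trend and 1 by the t-test. Thresholds of 0.01 and 0.10 gave 2 and 17 related genes higher, 0 and 13 lower, and over all genes 283 and 1422 higher, 260 and 3718 lower. The methods' thresholds gave 2 related genes higher and 1 lower, and of all genes 176 higher and 490 lower. Of all genes, 973 were called lower after quantile normalization, 866 after loess and 985 by the t-test, against 1712 as deposited. Leaving out 1 mouse or array, related genes called higher ranged over 3 to 11 and lower over 0 to 8, and all genes over 434 to 916 higher and 503 to 3568 lower, with the lowest counts without control_6675 and the highest without CKO_6300. Causes were not tested. Dim probes (Kera, Krt8, the second Vcan probe) are the least certain.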
